A study of Mus musculus with 3 samples.

Results

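The cells described here are endothelial cells of the mouse knee that carried transcripts of Aplnr or Prnd and few transcripts of the genes that mark venules, fat capillaries, arteries or division. They were chosen from unique molecular identifier (UMI) counts, so the counts of those genes define them and are not results. A cell first had to have at least 500 detected genes and at most 10% mitochondrial UMIs. It was taken as endothelial with at least 3 UMIs of Cdh5 and Pecam1 together, no UMI of Ptprc and under 0.2% of its UMIs from Col1a2, Col3a1 and Dcn. It was taken as angiogenic with at least 3 UMIs of Aplnr and Prnd together, fewer than 4 of Selp and Ackr1, fewer than 4 of Gpihbp1 and Rbp7, fewer than 3 of Gkn3, Sema3g and Gja5, and fewer than 3 of Mki67 and Top2a. Of 30197 cells that passed the first filter, 3241 were endothelial and 297 were angiogenic, and the 2944 others are called the other endothelial cells.

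The cells came from synovium and infrapatellar fat pad of wild-type mice, the soft tissues that line and cushion the knee joint. There was 1 single-cell RNA library for each of 3 groups: control knees of mice aged 2 months, knees 1 week after destabilisation of the medial meniscus (DMM, an operation that unsettles the joint and is used as a model of osteoarthritis), and knees 2 months after it. Surgery was done at 2 months of age, so the last group was also older than the control. Each library pooled 5 to 10 mice, the tissue was digested with trypsin and then collagenase, and live cells were sorted. A sham operation is not named in the labels. With 1 library a group, differences between animals could not be measured, no test was made, and the condition cannot be told apart from the library; every interval below is an exact 95% interval that covers counting error only.

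The apelin receptor, encoded by Aplnr, is a G-protein-coupled receptor of endothelial and other cells. Its ligand apelin, encoded by Apln, is made by endothelial tip cells, which lead a sprouting vessel, and the receptor is found in the cells that follow and on veins. Prnd encodes doppel, a glycolipid-anchored relative of the prion protein that has been described in endothelium of growing vessels. Sprouting vessels also lay down a basement membrane of type IV collagen, laminins and nidogens, and DLL4-Notch signalling limits how many cells become tip cells.

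In GRCm38 (GENCODE vM21), Aplnr lies at chr2:85136225-85139923 on the plus strand and Prnd at chr2:131950861-131956130 on the plus strand, 12431 bases past the end of Prnp, the prion protein gene. Apln lies at chrX:48025146-48034853 on the minus strand. Promoter windows from 250 bases before to 50 after the start came from RefSeq (GRCm38.p6). Of 18 genes looked up, which were the markers Aplnr, Prnd, Adgrl4 and Cd93 and the 14 genes named below as higher in members, 10 were matched. The windows of Prnd, a gene of the rule, and of Apln, the ligand of the apelin receptor, are shown. Searched on both strands, the Prnd window shown contained the hypoxia response core ACGTG on each strand, overlapping within the 6 capital letters of its sequence. The Apln window contained the ETS core AGGAAG 1 time, on the opposite strand, as the capitals of its sequence show. Of 32851 windows of that length, 19.6% held ACGTG and 35.4% held AGGAAG, so both matches are common. The forkhead letters GTAAACA (3.65% of windows), the SOX letters AACAAT (10.7%) and the RBPJ letters GTGGGAA (6.38%) were in neither window. RefSeq also gave Prnd a further start, and its window (chr2:131950787-131951086, plus strand) held 0 matches to any of the 5 motifs.
Prnd, plus strand, chr2:131950611-131950910: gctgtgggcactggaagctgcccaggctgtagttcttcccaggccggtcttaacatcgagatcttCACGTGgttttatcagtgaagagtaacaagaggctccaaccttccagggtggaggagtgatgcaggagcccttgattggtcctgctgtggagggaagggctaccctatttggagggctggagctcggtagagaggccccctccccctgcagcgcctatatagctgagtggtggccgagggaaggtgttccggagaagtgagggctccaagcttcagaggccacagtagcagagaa
Apln, minus strand, chrX:48034804-48035103: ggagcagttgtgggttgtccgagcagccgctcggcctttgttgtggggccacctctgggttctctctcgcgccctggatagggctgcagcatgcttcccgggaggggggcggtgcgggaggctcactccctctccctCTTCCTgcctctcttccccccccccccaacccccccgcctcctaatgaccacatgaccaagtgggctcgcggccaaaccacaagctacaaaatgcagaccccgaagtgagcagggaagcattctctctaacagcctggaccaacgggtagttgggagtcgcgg

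Members made up a larger part of the endothelial cells after DMM than in control. They were 33 of 981 endothelial cells in control (3.36%, Clopper-Pearson interval 2.33 to 4.69), 189 of 1332 at 1 week (14.2%, 12.4 to 16.2) and 75 of 928 at 2 months (8.08%, 6.41 to 10.03). The share at 1 week was 4.22 times that of control (2.90 to 6.31) and the share at 2 months was 2.40 times (1.58 to 3.74). The share at 2 months was 0.570 times that at 1 week (0.430 to 0.748). The intervals of the 3 shares did not overlap, but those of control and 2 months did with a limit of 2 UMIs (5.15 to 8.37 and 7.77 to 11.7). Overlap does not by itself compare shares. With that limit the ratio of 2 months to control was 1.45 (1.04 to 2.02), again with counting error only. Of all cells that passed, members were 0.407%, 1.53% and 0.767%. Members were shallower in the control library, with median UMIs per cell of 5772, 9759 and 13295 in control, 1 week and 2 months, and a rule of at least 3 UMIs takes more of the deeper cells. With each cell thinned to 3000 UMIs and shallower cells left out, which were 3 members and 112 others in control, 5 and 14 at 1 week and 2 and 24 at 2 months, the shares were 1.96% (1.15 to 3.12), 12.6% (10.8 to 14.5) and 3.77% (2.62 to 5.23), so the control and 2-month intervals overlapped.

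**Figure D1:**
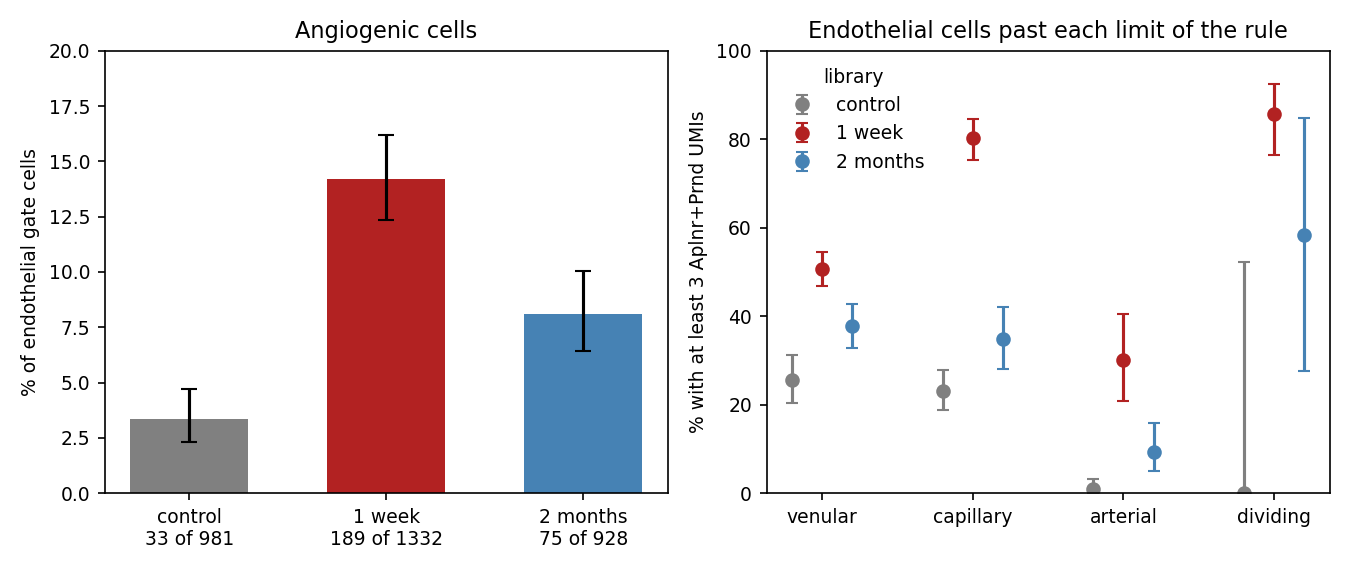
Left, the share of endothelial gate cells that met the angiogenic rule in each library, in percent with 95% Clopper-Pearson intervals; right, the share of the endothelial cells past the venular, capillary, arterial or dividing limit that also had at least 3 Aplnr and Prnd UMIs. The angiogenic share was 3.36%, 14.2% and 8.08%, and among cells past the capillary limit the criterion was met by 23%, 80.3% and 34.9%.

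The Aplnr and Prnd criterion was not confined to members. It was met by 161 endothelial cells in control (16.4%), 751 at 1 week (56.4%) and 292 at 2 months (31.5%), and members were 20.5%, 25.2% and 25.7% of those. Cells past the limit of the fat capillary genes Gpihbp1 and Rbp7 met it in 23% of cases in control (18.7 to 27.8), 80.3% at 1 week (75.4 to 84.6) and 34.9% at 2 months (28.1 to 42.2). Cells past the venular limit met it in 25.6%, 50.7% and 37.7%, and those past the arterial limit in 0.893% (0.108 to 3.19), 30% (20.8 to 40.6) and 9.38% (4.94 to 15.8). Of dividing endothelial cells, 0 of 5 met it in control, 72 of 84 at 1 week (85.7%) and 7 of 12 at 2 months. The order of the libraries was thus the same in the venular, capillary and arterial cells as in the members. Cells past the capillary limit and no other, a smaller set of 248, 201 and 155 cells, had a median of 5927, 12267 and 11899 UMIs, and the part of depth in these shares was not tested.

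The 2 genes of the rule were carried in different mixes. In control, 29 of 33 members had Aplnr and no Prnd UMI, 3 had Prnd alone and 1 had both. At 1 week 69 had Aplnr alone, 16 Prnd alone and 104 both, and at 2 months 44 had Aplnr alone, 1 Prnd alone and 30 both. Prnd was seen in 12.1% of members in control (3.40 to 28.2), 63.5% at 1 week (56.2 to 70.4) and 41.3% at 2 months (30.1 to 53.3). Members had a median of 4, 7 and 6 UMIs of both genes together and at most 11, 48 and 34. Fibroblast-rich cells, which should lack both genes, had an Aplnr UMI in 0.483%, 1.32% and 0.311% of cells and a Prnd UMI in 0.282%, 1.03% and 0.405%, at median depths of 12240, 15860 and 13163.5 UMIs.

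Summed over members and scaled to a total of 1000000 UMIs (counts per this total, CPM), Aplnr stood at 469, 467 and 343 in control, 1 week and 2 months, and Prnd at 68.5, 356 and 169. In the other endothelial cells Aplnr stood at 111, 300 and 129 CPM and Prnd at 8.76, 108 and 26.9. In these others the 1-week library was highest for both, and the rule shaped the levels of both sets. Prnp, the neighbour of Prnd, was at 298, 465 and 476 CPM in members and 190, 334 and 223 in the others. Apela, which encodes a further ligand of the apelin receptor, had 0 UMIs in every endothelial cell of the 3 libraries.

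Apln, the receptor's ligand, was present in a minority of members. It had a UMI in 4 of 33 members in control, 62 of 189 at 1 week (32.8%) and 24 of 75 at 2 months (32.0%), against 5.80%, 23.4% and 11% of the other endothelial cells. Members with both Apln and Aplnr UMIs numbered 2, 55 and 24. Its summed level in members was 507 CPM in control, but 93.2% of those 148 UMIs came from 1 cell, and it was 127 at 1 week and 158 at 2 months. Fibroblast-rich cells had an Apln UMI in 0.483%, 4.49% and 1.56% of cells. Thinned to 3000 UMIs, the share of members with an Apln UMI was 10%, 18.5% and 15.1%, and of the other endothelial cells 3.11%, 10.1% and 4.95%.

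Adgrl4 and Cd93, the 2 markers that the rule did not use, were present in most members and in most other endothelial cells. Adgrl4, an adhesion G-protein-coupled receptor of blood vessels, was at 428, 552 and 735 CPM in members and 354, 380 and 382 in the others. Cd93, a transmembrane C-type lectin that binds a multimerin of the vessel matrix, was at 473, 876 and 1160 CPM in members and 441, 729 and 667 in the others. Both had their highest member level at 2 months, where the member to other ratio was 1.93 for Adgrl4 and 1.74 for Cd93, against 1.21 and 1.07 in control. Thinned to equal depth, Adgrl4 was seen in 63.3%, 78.8% and 80.8% of members and 57.2%, 57.6% and 57.9% of the others. In full, it was seen in 97.0%, 94.2% and 98.7% of members and 79.1%, 82.3% and 83.0% of the others. Just outside the limit, endothelial cells with 2 UMIs of Aplnr and Prnd that met every other criterion numbered 32, 32 and 14 and had 560, 562 and 724 CPM of Adgrl4, and the 12, 26 and 19 members just inside it, with 3 UMIs, had 498, 402 and 699.

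Markers of endothelial and other cell types were then compared between members and the other endothelial cells. Both sets had passed the same gate, which required UMIs of Cdh5 or Pecam1 and limited Col1a2, Col3a1 and Dcn. Those genes are among the endothelial and fibroblast markers, so the comparison is no independent check of identity. The 16 pan-endothelial genes were all measured in members, with a median log2 ratio to the other endothelial cells of -0.13, 0.02 and 0.06. Lymphatic marker cells, with at least 3 UMIs of Prox1, Lyve1, Mmrn1 and Ccl21a, numbered 0, 1 and 2 among members and 8, 29 and 86 among the others, or 10.1% of the others at 2 months. Smooth muscle markers summed to 2192, 139 and 652 CPM in members and 1451, 188 and 888 in the others, and Cnn1 was at 0 in control members. The 8 fibroblast markers summed to 2483, 1259 and 848 CPM in members and 4916, 1339 and 2083 in the others, and Pdgfra was at 0 in control members. These sums moved with the library in both sets, and their part in the ratios below was not tested. Scrublet called 1 member a doublet, at 1 week. Of 77 barcodes that occurred in more than 1 library, 0 were shared by members of different libraries.

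**Figure D2:**
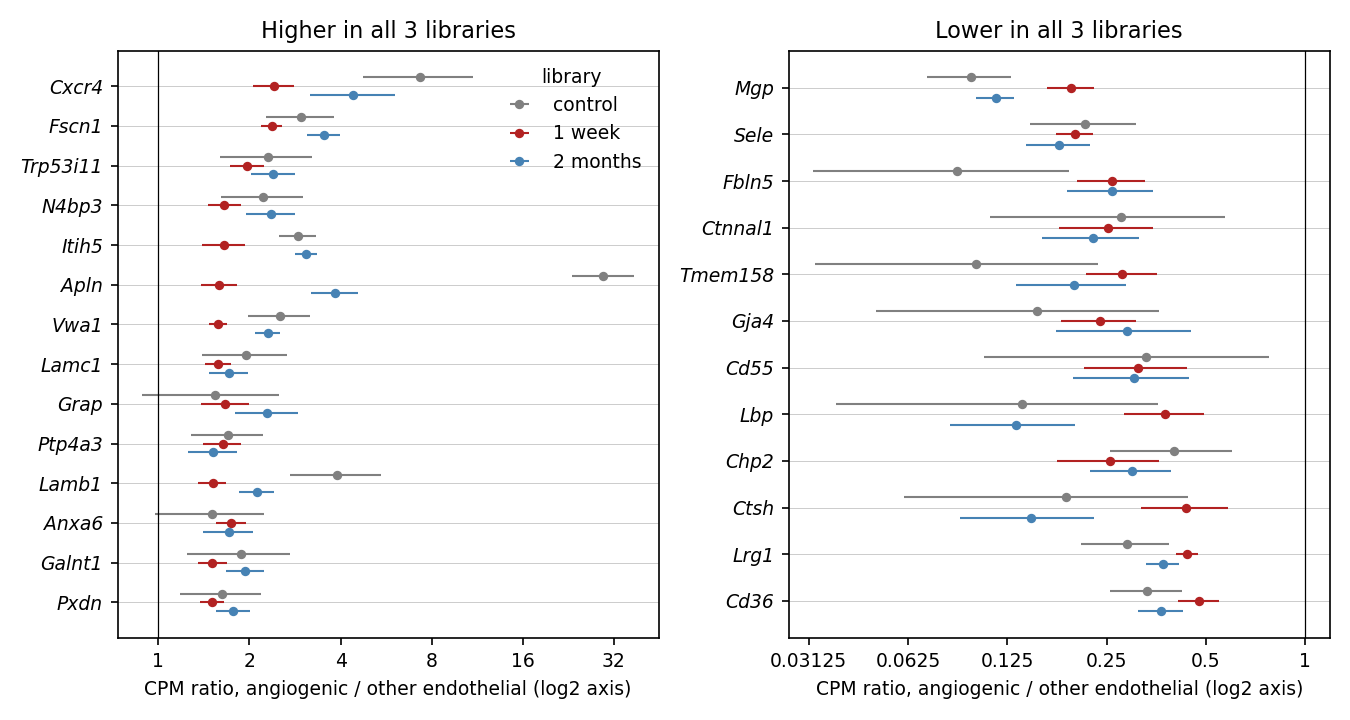
CPM ratio of angiogenic members to the other endothelial cells for the 26 named genes in each of the 3 libraries, on a log2 axis, with exact 95% counting intervals. Genes are ordered by the ratio of the library nearest 1: Cxcr4 led the higher genes with 2.41 at 1 week, and Mgp led the lower genes, 5.12-fold lower at 1 week.

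The rule chose these cells, so the next values only describe how members and other endothelial cells differed. At least 2-fold higher in members were 4.29% of 9633 measured genes in control, 0.582% of 10662 at 1 week and 1.18% of 10571 at 2 months, and 4.54%, 5.21% and 6.57% were at least 2-fold lower. A gene was measured with at least 50 UMIs in both sums together. Of genes at 50 CPM or more in the members of every library, 2 of 2425 were at least 2-fold higher in all 3, and of those at 50 CPM or more in the others, 14 of 2603 were at least 2-fold lower in all 3. The 2425 and 2603 genes leave out the genes of the rule, markers of other cell types, and mitochondrial, ribosomal, haemoglobin, sex-linked and predicted genes. The percentages of all measured genes did not leave these out. The 2 higher genes were Cxcr4 and Fscn1, which both have known roles in cell migration. Without the richest cell on each side the control ratio was 3.55 for Cxcr4 and 1.83 for Fscn1, so Fscn1 was then no longer 2-fold higher in control, nor was it with a limit of 5 UMIs in the rule (1.66).

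Cxcr4, the receptor for the chemokine CXCL12 and a gene of tip cells, was at 103, 108 and 51.1 CPM in members and 14.1, 44.8 and 11.6 in the others, ratios of 7.31, 2.41 and 4.41. In control 53.3% of its 30 member UMIs came from 1 cell. Fscn1, which encodes the actin-bundling protein fascin of filopodia, was at 229, 438 and 305 CPM against 77.5, 185 and 86.6, ratios of 2.96, 2.37 and 3.52. Both genes were higher in members of every library, and both were highest at 1 week in members and in the others alike. For Cxcr4, however, the member levels of control and 1 week were close. Cxcl12, the ligand, was lowest at 1 week in both sets, at 1603, 364 and 1467 CPM in members and 1022, 429 and 1019 in the others.

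The other 12 genes named as higher included genes of the matrix and of signalling. Among matrix genes, the laminin chain genes Lamb1 (ratios 3.90, 1.51 and 2.11) and Lamc1 (1.95, 1.57 and 1.71), the matrix peroxidase gene Pxdn (1.62, 1.5 and 1.77) and Vwa1, which encodes a matrix protein (2.53, 1.58 and 2.30), were higher in members of all 3 libraries. Itih5, whose family binds hyaluronan, had ratios of 2.89, 1.65 and 3.08. Trp53i11 had ratios of 2.29, 1.97 and 2.40, and Apln 29.5, 1.59 and 3.83, of which the control value became 2.25 without the cell richest in it on each side. N4bp3, Grap, Ptp4a3, Anxa6 and Galnt1 lay between 1.51 and 2.35 in all 3 libraries. The named genes were ranked by their ratio nearest 1, so being higher in all 3 libraries is how they were chosen. Without the richest cell on each side, the control ratios were 3.01 for Lamb1, 2.21 for Vwa1, 1.47 for Lamc1 and 1.12 for Pxdn. They were then 2.10 for Itih5, 1.77 for Trp53i11 and 1.76 for N4bp3. For Galnt1, Ptp4a3, Grap and Anxa6 they were 1.51, 1.31, 1.29 and 1.23.

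The 12 genes named as lower included arterial, venular and lipid-handling genes. The rule kept cells past the venular, capillary or arterial limit out of the members and left them among the others. Lower levels of genes of those cell types were thus favoured by the rule and are not findings. Mgp, an inhibitor of calcification found in arterial endothelium, was 10.3-, 5.12- and 8.68-fold lower in members, and Fbln5, an elastic fibre gene, 11.3-, 3.85- and 3.85-fold lower. Sele, which encodes E-selectin and captures leukocytes, was at 106, 122 and 74.8 CPM in members and 492, 607 and 417 in the others, and Lrg1, a secreted glycoprotein gene of venules, was 3.47-, 2.27- and 2.70-fold lower. Gja4, an arterial connexin, was 6.50-, 4.19- and 3.46-fold lower, and Cd36, a fatty acid receptor, 3.01-, 2.09- and 2.74-fold lower. Tmem158, Ctnnal1, Cd55, Lbp, Chp2 and Ctsh were between 2.29- and 9.94-fold lower. The capture genes of leukocytes as a list had a median log2 ratio of -0.36, -0.73 and -0.57 in members against others, but Cd34, a sialomucin on filopodia and capillaries, was higher in members of all 3 libraries, at 688, 700 and 810 CPM against 373, 566 and 454.

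Tip cell genes were higher in members in most cases, yet few members carried the best known of them. Of the tip cell genes measured, 12 of 17 in control, 15 of 16 at 1 week and 12 of 16 at 2 months had a ratio above 1, against 55.5%, 48.4% and 47.9% of all genes, and the median log2 ratio was 0.41, 0.70 and 0.58. Esm1, an endothelial proteoglycan gene, was seen in 6.06%, 14.8% and 16% of members and in 11.1%, 8.92% and 10.2% of the others. Pdgfb, whose product recruits pericytes, was at 366, 320 and 392 CPM in members and 195, 216 and 251 in the others. Dll4, the Notch ligand of tip cells, was lower in members in control (44.5 against 102 CPM) and higher at 1 week (103 against 70.5) and 2 months (122 against 78.5). Angpt2, a destabilising ligand of the TIE2 receptor, was at 20.5, 70.7 and 44.7 CPM in members and 23.6, 46.2 and 47.5 in the others, and was seen in 6.06%, 34.4% and 20% of members and 12.6%, 27.1% and 22% of the others. Esm1 and Angpt2 were thus seen in a smaller share of members than of others in control, and Angpt2 also at 2 months. In control each was seen in 2 of 33 members. Thinned to equal depth, Angpt2 was seen in 6.67% of members and 5.98% of others in control, and in 2.74% and 7.60% at 2 months. Esm1 was then seen in 6.67% of members and 8.49% of others in control. Kcne3 had 0, 15 and 0 UMIs in members. Igfbp3, a growth factor binding protein gene, was at 99.3, 326 and 154 CPM in members.

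**Figure D3:**
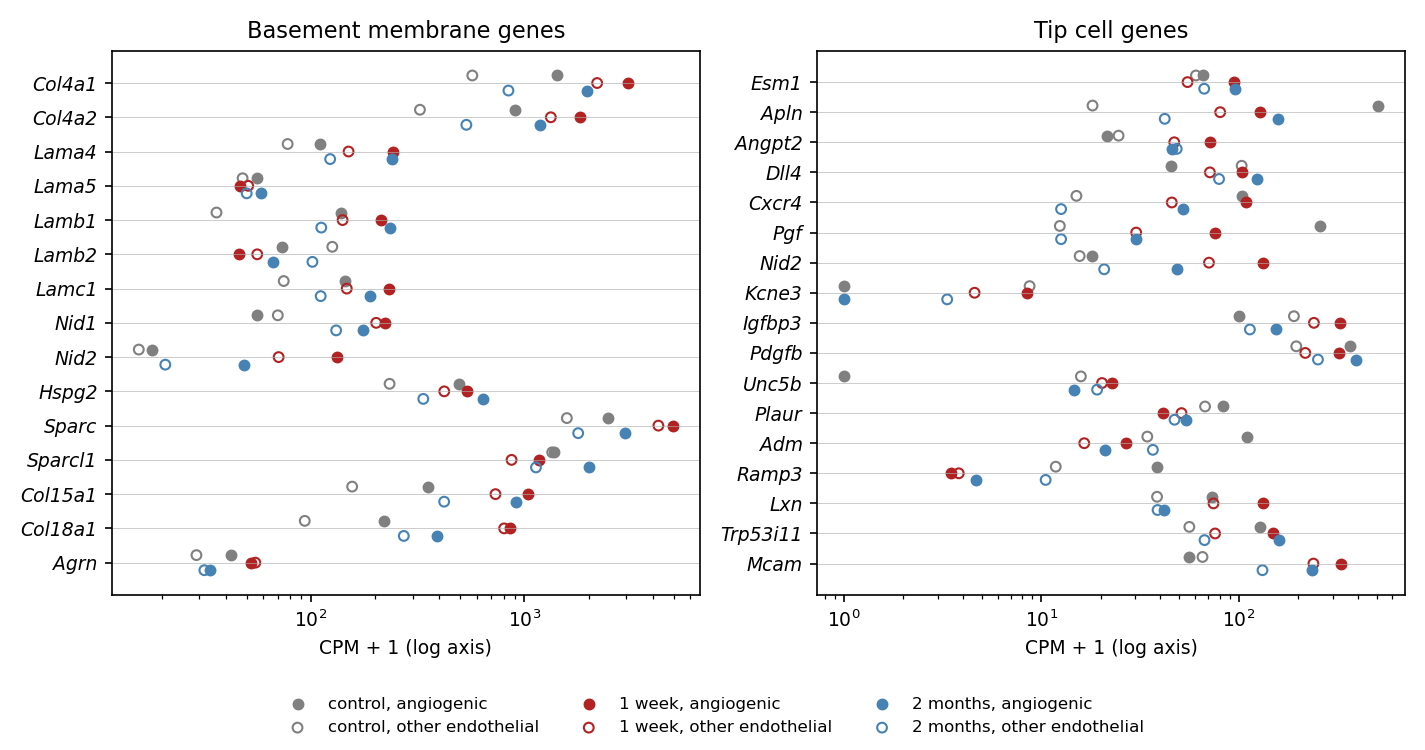
Summed level in CPM plus 1 on a log axis of basement membrane and tip cell genes in angiogenic members (filled) and other endothelial cells (open) of each library. Col4a1 was highest at 1 week in both sets, at 3057 CPM in members, while the control level of Apln in members, 507 CPM, rests on 1 cell for 93.2% of its UMIs.

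Between libraries, basement membrane genes were higher in members after DMM. In members at 1 week against control, 8 of 15 were at least 2-fold higher and 0 were lower, where 9.88% of all 5748 measured genes were higher and 5.51% lower. Their median log2 ratio was 1.02, against 0.10 for all genes, and in the other endothelial cells it was 1.42. At 2 months against control, 4 of 14 were at least 2-fold higher, with 6.25% of 4273 genes higher and 2.67% lower, and the median was 0.50. At 2 months against 1 week 0 of 15 were at least 2-fold higher and 2 were lower, with 5.34% of 6738 genes higher and 3.31% lower, and the median was -0.29. In members against the others, 13, 12 and 14 of 15 had a ratio above 1 in control, 1 week and 2 months. Of all genes, 55.5%, 48.4% and 47.9% had a ratio above 1 there. Tip cell genes went both ways, with 5 of 14 at least 2-fold higher and 4 lower in members at 1 week against control, and 4 higher and 4 lower at 2 months.

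Col4a1, a chain of type IV collagen, was at 1425, 3057 and 1961 CPM in members and 570, 2193 and 842 in the others, so its member level was 2.15 times control at 1 week (1.94 to 2.38) and 1.38 times at 2 months (1.24 to 1.53). Its partner Col4a2 was at 901, 1825 and 1181 CPM in members. Col15a1, whose collagen sits at the outer face of the basement membrane, was at 353, 1041 and 917 CPM, and Col18a1, the source of endostatin, at 219, 853 and 388. All 4 collagen genes were highest at 1 week, in the members and in the others. In control, 36.1% of the Col4a1 UMIs of members came from 1 cell.

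The nidogens, which link laminin and collagen networks, differed by more. Nid2 was at 17.1, 132 and 47.4 CPM in members and 14.6, 69.7 and 19.8 in the others, and Nid1 at 54.8, 222 and 174 against 69.1, 201 and 130. Nid2 was 7.71 times control at 1 week (3.26 to 23.9) from 5 UMIs in control, and Nid1 4.04 times (2.46 to 7.13). The laminin gene Lama4 of vessels was at 110, 241 and 239 CPM in members. It stayed at its 1-week level at 2 months, whereas Nid2 at 2 months was 0.359 times its 1-week level (0.262 to 0.485). Endothelial cells that met every criterion but had 0 Aplnr or Prnd UMIs had 769, 1640 and 469 CPM of Col4a1, and those with 3 UMIs 1817, 2419 and 1545.

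Matrix proteases and collagen-modifying enzymes were mixed. Of 17 measured at 1 week against control, 4 were at least 2-fold higher in members and 2 lower, against 9.88% and 5.51% of all genes. Their median log2 ratio was 0.70, against 0.10 for all genes. Mmp14, a membrane-bound collagenase of sprouting cells, was at 51.4, 177 and 72.1 CPM in members and 25.6, 149 and 49.9 in the others. Timp1, a metalloproteinase inhibitor, was at 17.1, 86.5 and 30.1 CPM, and Serpinh1, a collagen chaperone, at 565, 1004 and 611. These 3 genes had their highest level at 1 week. Adamts1, a protease that cleaves proteoglycans, was at 332, 250 and 431 CPM in members.

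Receptors that bind matrix and guide sprouts were also described by list. Of 9 integrin genes measured at 1 week, 4 were at least 2-fold higher in members than in control and 1 was lower, against 9.88% and 5.51% of all genes. Itga5, the fibronectin receptor chain, was at 47.9, 155 and 95.8 CPM, and Itgav, a vitronectin receptor chain, at 20.5, 68.2 and 25.5. Itga1, a collagen receptor chain, was at 120, 40.1 and 114 and was lowest at 1 week. Of 9 guidance receptor genes, 2 were at least 2-fold higher at 1 week and 4 at 2 months against control (9.88% and 6.25% of all genes), with median log2 ratios of 0.19 and 0.95, and 0.39 and 0.29 in the other endothelial cells. Plxnd1, the semaphorin receptor of vessels, was at 233, 398 and 512 CPM in members, and Ephb4, the venous ephrin receptor, at 68.5, 98.4 and 145. Sema6d was at 34.2, 110 and 140, and these 3 genes had their highest member level at 2 months.

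Kdr and Flt1, which encode VEGF receptors, were highest in members at 2 months. Kdr, the main VEGF receptor, was at 332, 395 and 566 CPM in members and 318, 429 and 469 in the others. Flt1, the decoy VEGF receptor, was at 702, 568 and 1163 CPM against 769, 672 and 932, and its 2-month level was 2.05 times that at 1 week (1.89 to 2.22). Pgf, a ligand of FLT1, was at 257, 75.2 and 29.2 CPM in members and 11.4, 29.2 and 11.6 in the others, and 60% of its control UMIs came from 1 cell. Mcam, an adhesion molecule that also binds VEGF receptor, was at 54.8, 328 and 234 CPM against 64.6, 238 and 131, or 5.99 times control at 1 week (3.66 to 10.5) and 4.26 times at 2 months (2.57 to 7.57).

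Notch genes of members differed from control in ligand and target. Of 10 measured at 1 week, 3 were at least 2-fold higher and 1 lower, against 9.88% and 5.51% of all genes, and of 9 at 2 months, 3 were higher and 0 lower, against 6.25% and 2.67%. The member medians were 0.33 and 0.63 on the log2 scale, against -0.19 and -0.07 in the other endothelial cells. Hey1, a Notch target, was at 20.5, 182 and 52.9 CPM in members and 79.3, 170 and 52.0 in the others, 8.88 times control at 1 week (4.04 to 24.4) from 6 UMIs in control. Dll4 was 2.31 times control at 1 week (1.32 to 4.41) and 2.75 times at 2 months (1.55 to 5.29), where the others were at 0.688 and 0.766 times. Hes1, a further target, was at 1305, 2205 and 1485 CPM. In the BMP and TGF-beta list, 2 of 10 genes were at least 2-fold higher at 1 week and 2 of 9 at 2 months, against 9.88% and 6.25% of all genes, and Id2, a target of BMP signalling, was at 61.6, 192 and 154 CPM.

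Early response genes were lower at 1 week. Of 17 immediate-early and heat-shock genes, 12 were at least 2-fold lower at 1 week than in control, against 5.51% of all genes. None of the 17 had a ratio above 1, where 56.2% of all genes did. Their median log2 ratio was -1.25 in members and -1.24 in the others. At 2 months 3 of 17 were at least 2-fold lower than in control, against 2.67% of all genes. At 2 months 8 of 17 were at least 2-fold higher than at 1 week, against 5.34% of all genes. Fos was at 4449, 868 and 2824 CPM in members, Egr1 at 1736, 308 and 1826, and Hspa1a, a heat-shock chaperone gene, at 558, 30.2 and 167. These genes also answer to tissue digestion, and the size in the other endothelial cells was alike. Whether the digestion differed between the libraries was not tested.

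The flow-response transcription factor genes Klf2 and Klf4 were lower at 1 week in both sets. Klf2 was at 1325, 512 and 890 CPM in members and 1820, 628 and 999 in the others, and Klf4 at 1394, 359 and 890 against 1408, 534 and 1108. Thbd, the anticoagulant thrombomodulin gene that KLF2 induces, was at 360, 85.1 and 268 against 228, 105 and 190. All 3 had their lowest level at 1 week and their highest in control. The list did not move as one. In the others 4 of 9 measured genes had a ratio above 1 at 1 week and 5 below, where 52.5% of all genes were above 1. The median log2 ratio of these 9 genes was -0.09, against 0.03 for all genes. In members the 7 measured genes had a median of -0.72, but 0.07 when each gene's richest cell was left out, when the median of all genes was also higher, at 0.36.

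Fat capillary genes were mostly lower after DMM. Of 8 measured in members at 1 week, 4 were at least 2-fold lower than in control and 1 was higher, against 5.51% and 9.88% of all genes, and the median log2 ratio was -0.92 in members and -1.70 in the others. Tcf15, a transcription factor of fatty acid-handling capillaries, was at 147, 21.8 and 66.6 CPM in members and 182, 17.3 and 75.5 in the others. Aqp1, a water channel gene, was at 682, 196 and 918, and Cd300lg, a capillary glycoprotein gene, at 305, 122 and 276. These 3 were lowest at 1 week. Cells past the capillary limit for Gpihbp1 and Rbp7 were left out of the members, so the rule bounds this list in members of every library.

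Among other lists, interferon-response genes at 2 months had a ratio to control above 1 in 1 of 10 measured cases, against 54.9% of all genes. Of those 10, 3 were at least 2-fold lower than in control, against 2.67% of all genes. The other endothelial cells moved the same way, with 1 of 17 measured genes above 1, against 58.5% of all genes. The median log2 ratio was -0.44 in members and -0.59 in the others. Isg15, a ubiquitin-like protein gene, was at 175, 180 and 62.0 CPM in members, and Bst2, the tetherin gene, at 295, 642 and 290. Glycolysis genes showed a median log2 ratio of 0.17 at 1 week and -0.07 at 2 months against control, with Pkm, the pyruvate kinase gene, at 219, 521 and 345 CPM. Division genes were limited by the rule, which removes cells with 3 or more UMIs of Mki67 and Top2a together. Within that limit Tyms, a gene of DNA synthesis, was at 10.3, 57.9 and 32.8 CPM, Ccnd1, a cyclin gene of early cycle, at 199, 326 and 429, and Cdkn1a, a cell cycle inhibitor gene, at 1072, 283 and 393.

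**Figure D4:**
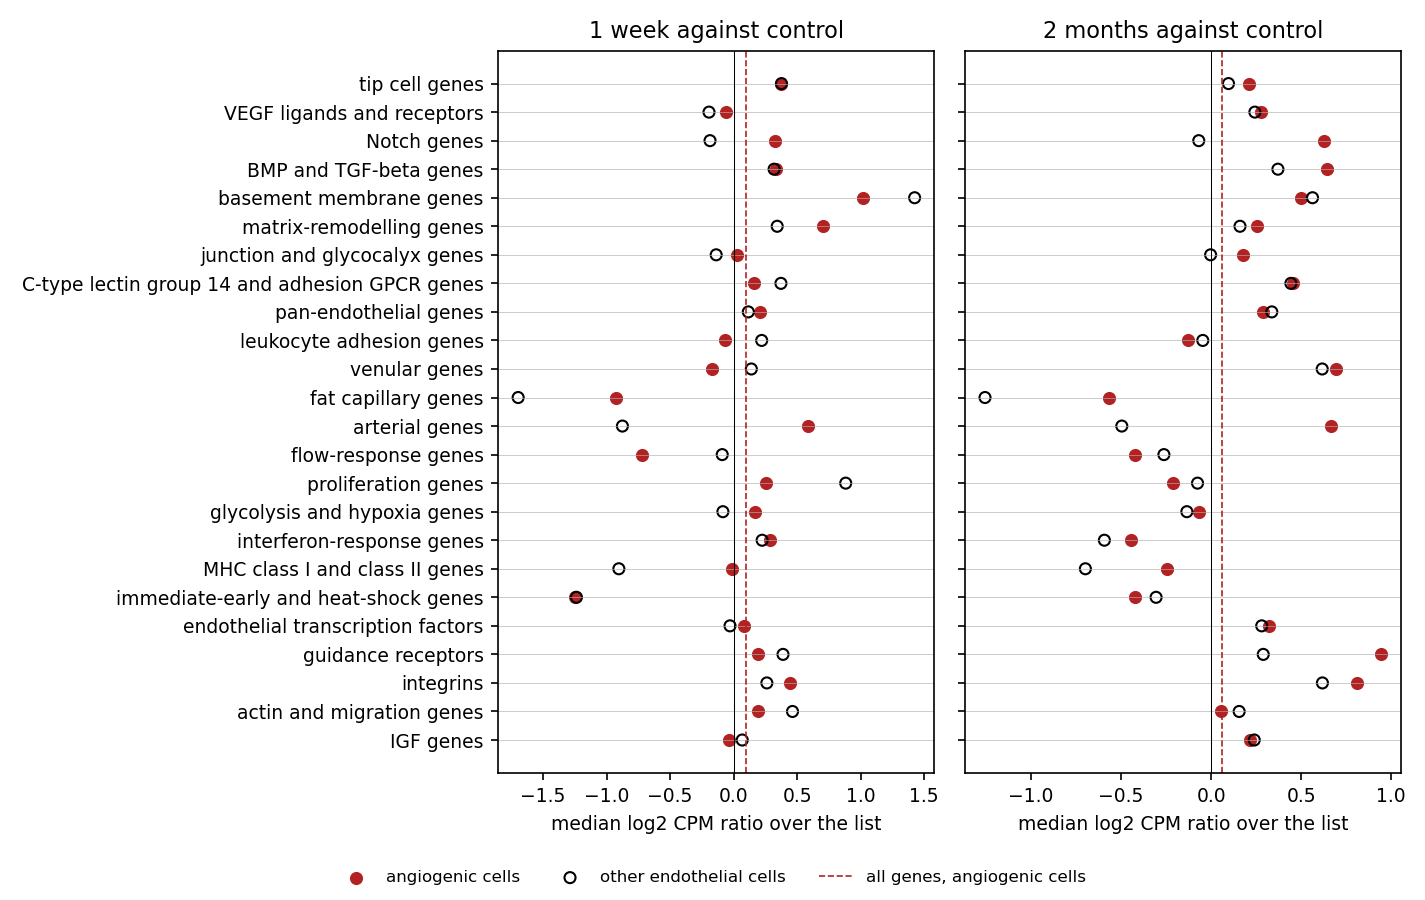
Median log2 CPM ratio of each gene list between libraries, filled for angiogenic members and open for the other endothelial cells, with the median of all genes as a dashed line. At 1 week against control the basement membrane genes had a member median of 1.02 and the immediate-early and heat-shock genes -1.25.

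Over all genes, 885 of 5748 (15.4%) were at least 2-fold apart between 1 week and control in members, 381 of 4273 (8.92%) between 2 months and control, and 583 of 6738 (8.65%) between 2 months and 1 week. The comparisons with control share the same 33 cells. Genes far above control at 1 week were taken among those with at least 100 UMIs in both sums together and 50 CPM in either. Mest, an imprinted gene, was at 6.85, 217 and 8.21 CPM in members and 13.6, 173 and 8.65 in the others, and was high at 1 week alone in both sets. Its ratio to control at 1 week in members was 31.6 (8.70 to 262), from 2 UMIs in control.

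Cd276, an immune checkpoint molecule known from tumour vessels, was at 6.85, 144 and 22.8 CPM in members and 1.27, 72.2 and 9.69 in the others. Its control value was 2 UMIs in 1 cell, and its 1-week value 292 UMIs in 113 cells, a ratio of 21.1 (5.78 to 175). Akr1b8, an aldo-keto reductase gene, was at 10.3, 111 and 48.4 CPM, and Tgfbi, a matrix adhesion gene, at 6.85, 150 and 59.3. Cotl1, an actin-binding protein gene, Il2rg, the shared chain of interleukin receptors, Arrdc3, an arrestin-domain gene, and Hmgb3, a chromatin protein gene, were at 81.1, 75.7, 75.2 and 72.2 CPM at 1 week, from 3 UMIs or fewer in control. All of these were also higher at 1 week than in control in the other endothelial cells, by 2.69 to 56.9 times. Ccl5 was also named by this ranking, at 0, 159 and 0 CPM, but 98.4% of its UMIs came from 1 cell, the doublet.

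Of the 12 genes named as lower at 1 week, several encode secreted or membrane proteins. Cst3, the cystatin C gene, was at 3178, 386 and 1245 CPM in members, 8.24-fold lower at 1 week, with 33 of 33 control cells and 179 of 189 at 1 week carrying it. Itih5 was at 753, 92.5 and 634 CPM, Pltp, a lipid transfer protein gene, at 630, 86.0 and 537, Bcam, a laminin receptor gene, at 408, 63.3 and 285, and Clic5 at 240, 32.6 and 154. These 5 genes were lowest at 1 week and nearer to control at 2 months, and the others moved in the same order. Ccnd2, a D-type cyclin gene, was at 229, 25.2 and 111 CPM, and Mt1, a metallothionein gene, at 281, 45.5 and 59.3. Hspa1a is given above, and Tpm2, Mustn1, Vcam1 and S100a4 were 15.8-, 8.47-, 7.18- and 6.35-fold lower. In control, 81.3%, 41.9%, 73.7% and 68.1% of the UMIs of those 4 came from 1 cell.

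**Figure D5:**
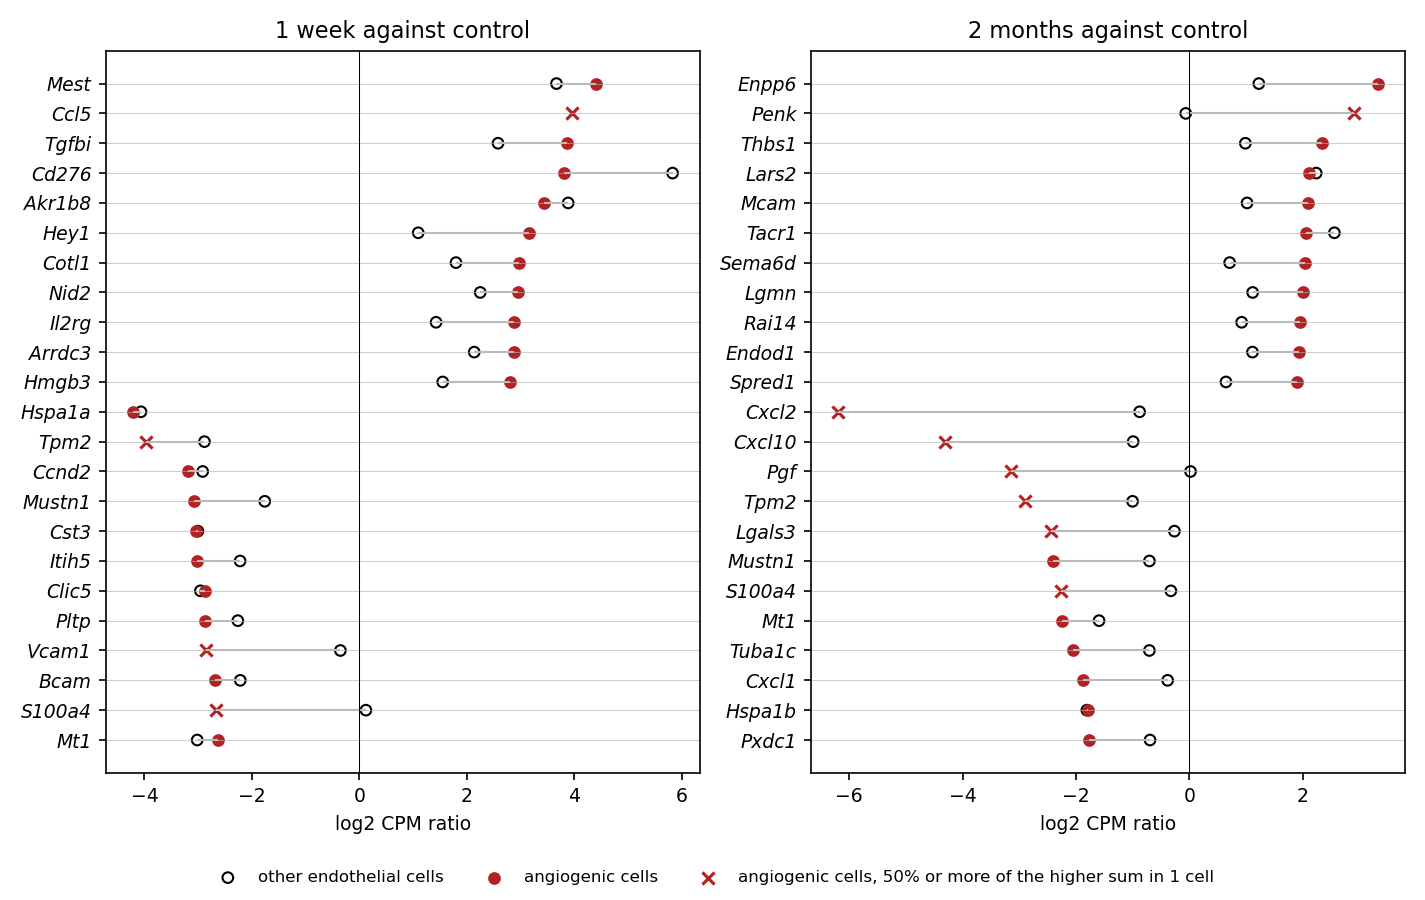
Log2 CPM ratio of the named genes at 1 week and at 2 months against control in angiogenic members and in the other endothelial cells, joined by a line per gene; crosses mark genes with at least 50% of the higher sum in 1 cell. Sums under 3 UMIs were raised to 3. Of the genes drawn, Mest had the highest member ratio at 1 week, 21.1 against 12.7 in the others, and Enpp6 at 2 months, 10.0 against 2.34.

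Genes far above control in members at 2 months had varied roles. Enpp6, a phosphodiesterase gene, was at 10.3, 65.3 and 103 CPM, 10.0 times control (3.35 to 49.4) from 3 UMIs in control. Thbs1, the thrombospondin gene that restrains angiogenesis, was at 17.1, 82.1 and 86.7, and Tacr1, the substance P receptor gene, at 20.5, 24.2 and 85.8. Lars2, a mitochondrial tRNA synthetase gene, was at 199, 173 and 862 CPM in members and 206, 179 and 973 in the others, so it was high at 2 months in both sets alike. Mcam and Sema6d are given above, and Lgmn, Rai14, Endod1 and Spred1 were 3.73 to 4.01 times control. Penk, at 7.46 times, was carried by 5 cells at 2 months.

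The genes furthest below control at 2 months were mostly carried by few control cells. Cxcl2, a chemokine gene, was at 401, 67.3 and 5.47 CPM with 76.1% of control UMIs in 1 cell, and was 73.2-fold lower at 2 months, or 21.0-fold without the richest cell of each library. Cxcl10, an interferon-induced chemokine gene, was at 291, 80.1 and 14.6 CPM, from 3 cells in control. Lgals3 was 5.39-fold lower with 93.7% of control UMIs in 1 cell, and 2.66 times higher without the richest cells. Pgf, Tpm2, Mustn1, S100a4, Mt1, Tuba1c, Cxcl1, Hspa1b and Pxdc1 were 3.42- to 8.80-fold lower, and S100a4 became 1.92-fold lower without the richest cells. Hspa1b and Tuba1c rested least on 1 cell among them, with 13.4% and 20% of control UMIs in it.

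Between the operated libraries, which hold more members and are better measured, Fmo2, a flavin monooxygenase gene, was at 1.98 CPM at 1 week and 92.1 at 2 months, 46.6 times higher (17.6 to 174), with 253 in control. Lepr, the leptin receptor gene, was at 54.8, 16.8 and 113 CPM, and Itih5 and Pltp were 6.86 and 6.24 times higher at 2 months. Tpm3-rs7 was 24.4 times higher (13.6 to 48.3), which is uncertain since it shares sequence with Tpm3. Gdpd3, a phosphodiesterase gene, was at 65.1, 122 and 1.82 CPM, from 2 UMIs at 2 months, a ratio to 1 week of 0.0150 (0.00181 to 0.0548). Mest was 26.4-fold lower at 2 months than at 1 week, Cxcl2 12.3-fold, Moxd1 9.76-fold and Angptl4, a lipase inhibitor gene, 8.83-fold. Penk, also named here, had 140 UMIs at 2 months and 2 at 1 week, a ratio of 129 (35.1 to 1077), with 56.4% of the 2-month UMIs in 1 cell. Without the richest cell of each library it had 0 UMIs at 1 week and was at least 37.5 times higher at 2 months, against a floor of 3 UMIs over the members. Ccl5 had 0 UMIs at 2 months, and 98.4% of its 1-week UMIs came from the doublet.

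Over 19 sums of endothelial subsets by library, the genes whose log2 level followed that of Aplnr and Prnd most closely were Ifi204 (Pearson r 0.90), Fscn1 (0.90), Col15a1 (0.87), Pxdn (0.86) and Tcim (0.86), of 4659 ranked. The sums share 3 libraries, so these values describe and test nothing.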

How the data were processed

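Cells came from 3 libraries of mouse knee synovium and fat pad, grouped by the labels as control, 1 week and 2 months after DMM. The authors deposited whole-number UMI counts per gene and barcode (9003, 13986 and 10799 barcodes with 96782789, 179561680 and 159333121 UMIs), written by Cell Ranger 5.0.0 or, at 2 months, 5.0.1 per the file headers, whereas the submitters' processing notes name Cell Ranger 6.0.1 and mm10. The filter left 8099, 12316 and 9782 cells with median UMIs of 10871, 12919.5 and 13543. Counts of members (291992, 2022208 and 1096128 UMIs) and of the other endothelial cells were summed per library and given as CPM. Ratios have exact conditional binomial intervals, CPM exact Poisson ones and shares Clopper-Pearson ones. Genes needed 50 UMIs in both sums together, and a sum under 3 UMIs was raised to 3 for ranking and for counting 2-fold changes.

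Genes were named by rank of ratio: the 12 highest and 12 lowest against control and the 6 and 6 of 2 months against 1 week, with at least 100 UMIs in both sums and 50 CPM in either; and the 15 highest and 12 lowest against the other endothelial cells, at 50 CPM in every library, by the ratio nearest 1. Mitochondrial, ribosomal, haemoglobin, sex-linked, predicted and rule genes and markers of other cell types were left out of naming, and some genes that the rule picks are not reported here. Genes of the lists were chosen for their known roles. The members and lists were chosen with earlier results of these data known. Scrublet (scanpy 1.11.5) marked doublets, which were kept except in 1 alternative. Alternatives were 2 or 5 UMIs in the rule, thinning to 3000 UMIs, stricter cell and gene filters, per-cell means and edgeR 4.0.16 TMM factors (1.02, 0.960 and 1.02). After the data were seen, alternatives were added without contractile-rich members, without each gene's richest cell and without lymphatic-marker cells. Python 3.11.15, numpy 2.4.6, scipy 1.17.1, matplotlib 3.10.9 and R 4.3.3 were used, and the scripts were tested on simulated data.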

Additional observations from a re-analysis of the deposited data

Results flagged for a closer look

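Pgf and Apln had ratios to control below 1 in angiogenic cells and above 1 in the other endothelial cells of the same libraries. The difference was not tested, since each group has 1 library. Pgf at 1 week was 0.293 times control in members (0.221 to 0.391) and 2.56 times in the others, and 0.645 times in members without the richest cell of each library. Apln was 0.250 times control in members at 1 week (0.203 to 0.308) and 0.311 times at 2 months (0.249 to 0.390), against 4.63 and 2.40 times in the others. Without the richest cells Apln was 3.47 and 3.78 times control in members.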

How the results depend on the processing

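No paired analysis was possible because each group has 1 library. The order of the shares (control below 2 months below 1 week) was the same in each alternative run, but the values moved. With 2 Aplnr and Prnd UMIs the shares were 6.63% in control and 16.6% at 1 week; with 5 they were 1.33%, 10.7% and, at 2 months, 5.28%; thinned they were 1.96% and, at 2 months, 3.77%; and with that criterion alone 16.4%, 56.4% and 31.5%. The ratio of 1 week to control was 2.50 with 2 UMIs, 8.04 with 5 and 6.40 thinned, that of 2 months to control 1.45 and 3.98 with 2 and 5, and that of 2 months to 1 week 0.300 thinned.

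Genes at least 2-fold apart numbered 234, 59 and 168 with 200 UMIs required, where fewer genes were tested, and 572 for 2 months against control without each gene's richest cell. Leaving that cell out without rescaling raised the median of all genes at 1 week to 0.36, and 85.2% of calls were then higher against 64.2% (at 2 months 88.8% against 70.1%). With TMM factors 48.5% of calls between 2 months and 1 week were higher, against 61.7%. Against the other endothelial cells in control, 65.8% of calls were higher thinned, 88.6% with 5 UMIs and 13.4% without the richest cells, against 48.6%, and the counts were 2758 with 5 UMIs (13 cells) and, at 2 months thinned, 516. The arterial list at 1 week against control had a median of 0.59, but -0.21 with 5 UMIs and -0.33 with 200 required, and the flow-response list 0.068 without the richest cells. Ccl5 had 0 UMIs in members of control and 2 months; with those sums set at 3 UMIs its ratio was 0.242 (1 week to control) and 1.10 (2 months to 1 week) without doublets, and 0.241 and 1.11 without the richest cell, values that the floor makes and that show no direction. Lgals3 at 2 months was 2.66 times control without the richest cells. Among the remaining values, 32 list medians moved and 1135 did not, and 38 single-gene ratios moved and 967 did not. A single-gene ratio counted as moved only if it crossed the 2-fold line, and a list median only if it shifted past a set margin. Values counted as not moved could thus change much in size. Apln in members against the others in control went from 29.5 to 2.25 without the richest cells and was counted as not moved. With 33 control members, genes with few UMIs there have wide counting intervals in their ratios to control.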
